A study of Mus musculus with 24 samples.

Results

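The genes described here are 9 transcripts by which microglia, the resident macrophages of the brain, are recognised. They are the receptors P2ry12, P2ry13, Gpr34 and Cx3cr1, the membrane protein Tmem119, the growth factor receptor Csf1r, and C1qa, C1qb and C1qc, which encode the 3 chains of complement C1q. They were chosen by name, as the entries of the count table whose symbol, written there in capitals, is P2RY12, P2RY13, GPR34, CX3CR1, TMEM119, CSF1R, C1QA, C1QB or C1QC, and all 9 were found among 51733 genes. RNA was sequenced from the hippocampi of 12 adult C57BL/6 males aged 2 to 3 months, the frozen hippocampi of 1 mouse being pooled, with 1 input library of the whole lysate and 1 RiboTag immunoprecipitate (IP) per mouse. RiboTag is an epitope tag on a ribosomal protein that Cre recombinase switches on, and ribosomes were pulled down with an anti-HA antibody. In the eIF2α cKI (conditional knock-in) mice, eIF2α is A/A, with alanine in place of the phosphorylated serine, and CaMKIIα-Cre removes a floxed transgene (fTg) of normal eIF2α. Control mice are labelled Standard CaMKIIα-Cre+ and share the Cre driver; the labels do not list their other alleles. Each genotype has 3 mice taken 1 h after fear conditioning, a pairing of a tone with a foot shock, and 3 naive mice. The protocol text describes a weak and a strong training, and no label says which of them these mice had. CaMKIIα-Cre acts in excitatory forebrain neurons and is not a driver for microglia.

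Microglia watch neurons through surface receptors. P2ry12 and P2ry13 sense adenine nucleotides such as ADP, Gpr34 binds lysophosphatidylserine, Cx3cr1 binds fractalkine (Cx3cl1) from neurons, and Csf1r binds Csf1 and Il34 and keeps microglia alive. C1q is the recognition part of the classical complement cascade, and in the brain it is made mostly by microglia and is known for its deposition on synapses.

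Inputs held 28.8 to 37.7 M counts and IPs 30.6 to 43.5 M counts, so that 1 count was worth at most 0.0312 CPM in an input and 0.0371 CPM in an IP. CPM are counts per 1000000 after TMM scaling of all 24 libraries and are not divided by transcript length, so levels are compared between samples and not between genes. Among inputs, naive cKI replicate 3 stood apart in single genes, where 36 genes differed over 4-fold from its group's other libraries, against 1 to 10 in the other inputs. By the median absolute log2 deviation over genes it did not stand apart, at 0.0745. The largest such value of an input was 0.152, in naive control replicate 2. Eif2s1, which encodes eIF2α, averaged 52.8 ± 1.84 CPM in cKI IPs and 45.4 ± 2.49 CPM in control IPs (SD, n = 6 each). In inputs it averaged 38.6 ± 1.96 CPM in cKI mice and 32.2 ± 1.25 CPM in control mice. Gene counts do not tell the knock-in allele from the normal one. Sequencing lane, as the labels give it, moved with genotype: all 6 cKI inputs ran in lane 4, whereas 2 control inputs ran in lane 4 and 4 in lane 5. All 6 control IPs and 2 cKI IPs, both at 1 h, ran in lane 6 and the other 4 cKI IPs in lane 5, so IPs of naive mice share no lane between genotypes. No input ran in lane 6 and no IP in lane 4, so lane moved with fraction too. Lane also moved with training. All control inputs at 1 h and all naive cKI IPs ran in lane 5, whereas most naive control inputs and most cKI IPs at 1 h did not. Values within a lane, or with lane in the fit, stand beside the genotype results below, and beyond these lane and genotype cannot be told apart. Within a group, lane varied only among naive control inputs (replicate 3 in lane 5, the others in lane 4) and cKI IPs at 1 h (replicate 1 in lane 5, the others in lane 6). A lane covariate rests on those libraries alone, so a call lost with it does not tell lane from genotype.

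RefSeq promoters (GRCm38.p6, from 250 bases before to 50 after the annotated start) were at hand for 5 of the 9 genes. Those of P2ry12 with P2ry13 and of C1qb with C1qc are shown because each pair lies in 1 cluster and varied together across inputs. Capitals mark GAGGAA, the core of a PU box, and GGAAGT, an ETS-type site, on either strand of the window, each window being printed along its gene's own strand; both are letter patterns that the macrophage factor PU.1 (Spi1) is known to bind.
P2ry12, chr3:59262936-59263235, minus strand: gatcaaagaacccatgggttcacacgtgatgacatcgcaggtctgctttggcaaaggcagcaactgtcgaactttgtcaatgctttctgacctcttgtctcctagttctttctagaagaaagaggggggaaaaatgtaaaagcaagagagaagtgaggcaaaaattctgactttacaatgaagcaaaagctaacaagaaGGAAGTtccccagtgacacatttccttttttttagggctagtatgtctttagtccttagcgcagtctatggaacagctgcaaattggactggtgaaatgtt
P2ry13, chr3:59210833-59211132, minus strand: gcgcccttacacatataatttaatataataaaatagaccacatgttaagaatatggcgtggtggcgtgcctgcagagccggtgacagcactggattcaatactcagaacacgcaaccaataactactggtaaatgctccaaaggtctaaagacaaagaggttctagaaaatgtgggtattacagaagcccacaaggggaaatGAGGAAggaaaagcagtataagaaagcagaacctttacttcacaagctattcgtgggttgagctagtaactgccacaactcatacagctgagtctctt
C1qb, chr4:136886151-136886450, minus strand: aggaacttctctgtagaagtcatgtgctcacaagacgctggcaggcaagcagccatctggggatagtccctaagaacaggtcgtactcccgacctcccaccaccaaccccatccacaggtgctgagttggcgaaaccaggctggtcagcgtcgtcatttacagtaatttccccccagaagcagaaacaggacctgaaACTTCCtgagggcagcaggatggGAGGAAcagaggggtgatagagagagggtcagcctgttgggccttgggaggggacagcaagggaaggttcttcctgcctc
C1qc, chr4:136892865-136893164, minus strand: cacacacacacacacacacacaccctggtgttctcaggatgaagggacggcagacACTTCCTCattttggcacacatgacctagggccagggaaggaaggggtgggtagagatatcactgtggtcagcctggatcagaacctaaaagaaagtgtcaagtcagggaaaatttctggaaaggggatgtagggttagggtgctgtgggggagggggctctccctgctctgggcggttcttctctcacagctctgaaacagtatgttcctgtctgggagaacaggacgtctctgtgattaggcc
The P2ry12 window held the ETS-type site and the P2ry13 window the PU box. C1qb held each once, the ETS-type site as its reverse complement. In C1qc both appeared as reverse complements and overlapped, so that they form 1 run of capitals. The Cx3cr1 window held neither. GAGGAA was found in 28.3% and GGAAGT in 23.8% of 32851 RefSeq promoters of this length, and 43.4% held at least 1 of them, against 4 of these 5. A match is a pattern of letters and was not measured as a binding site.

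All 9 genes were nearly emptied from the IPs. Across the 12 mice the IP level of a gene was a median 2.69% (P2ry13) to 4.57% (Cx3cr1) of the input level of the same mouse, and every one of the 9 was lower in IP than in input. The depletion was of similar size for the receptors and for the C1q chains. Summed, the 9 genes kept a median 3.77% of their input level (2.85 to 4.35% over the 12 mice). Summed marker lists of other cells kept 3.54% for blood, 5.53% for vessels, 6.06% for oligodendrocyte precursors, 7.21% for oligodendrocytes and 14.3% for astrocytes, and other microglia genes kept 7.79 to 12.0% over the mice; differences between lists were not tested.

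P2ry12 had 1.15, 0.716 and 1.34 CPM in cKI IPs at 1 h, 1.08, 0.985 and 0.861 CPM in naive cKI IPs, 1.25, 1.09 and 1.26 CPM in control IPs at 1 h and 0.878, 1.09 and 1.03 CPM in naive control IPs. The 12 inputs of the same mice held 25.1 to 33.5 CPM, with a median of 29.5 CPM. No IP came near an input, and its fitted log2 fold change was -4.80 (SE 0.07, n = 12 against 12).
C1qa, which encodes the A chain of C1q, had 1.52 to 4.12 CPM in IPs (median 2.11 CPM) and 44.5 to 72.4 CPM in inputs (median 54.6 CPM), a log2 fold change of -4.69 (SE 0.11). Its highest IP, naive cKI replicate 2, had 142 counts, against 53 to 85 counts in the other 11.
The remaining fitted changes were -5.04 for P2ry13, -4.81 for Gpr34, -4.46 for Cx3cr1, -4.52 for Tmem119, -4.87 for Csf1r, -4.95 for C1qb and -4.88 for C1qc, with SE of 0.07 to 0.13. Each passed edgeR's quasi-likelihood test with Benjamini-Hochberg adjusted p of 3.7e-19 or less. Lower calls were common in this comparison, at 43.1% of the 17453 genes tested, so a lower call alone says little about a gene. Their median was -4.81, against -0.01 over all genes, and 0.945% of all genes were at or below the least depleted of them, Cx3cr1. The residual rests on few counts: Gpr34 had 3 to 24 counts per IP, P2ry13 6 to 18 and Csf1r 85 to 170. In the comparisons of inputs between mice below, a different number of cells of a type and a different amount of RNA per cell cannot be told apart.

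**Figure D1:**
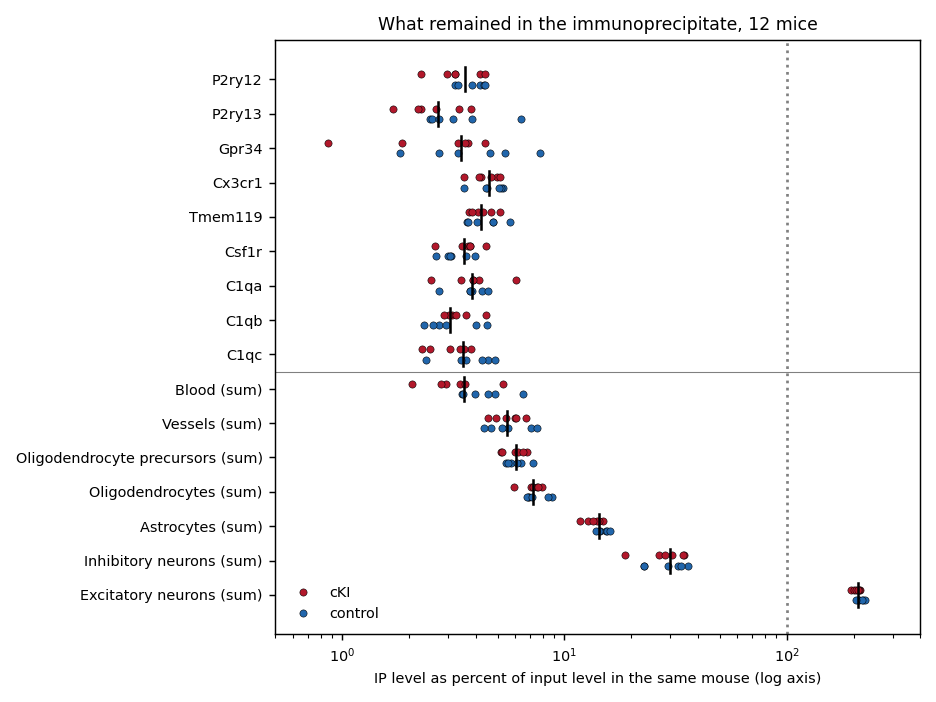
IP level as a percentage of the input level of the same mouse (log axis), 1 point per mouse, cKI above control in each row, with a black line at the median of 12 mice; the dotted line marks equal levels. The 9 genes have medians of 2.69 to 4.57%, below the summed marker lists of astrocytes at 14.3%, oligodendrocytes at 7.21% and inhibitory neurons at 29.8%, while excitatory neuron markers are at 210%.

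Other genes of microglia behaved alike but over a wider range. All 30 of 30 measured genes in a list of other microglia genes were lower in IP, with a median log2 fold change of -3.89. Trem2, a lipid-sensing receptor, was at -4.44, and Ctss, a lysosomal protease, at -5.21, whereas Aif1, which encodes the marker protein Iba1, was at -2.16. The smallest depletion in that list was that of Cyth4 at -0.75.
Among the partners that neurons and other cells make for these receptors, Cx3cl1, the ligand of Cx3cr1, was higher in IP by 1.11 on the log2 scale and Il34, a ligand of Csf1r, by 0.40, while the other Csf1r ligand, Csf1, was lower, at -0.71. Entpd1, the enzyme that breaks down ATP and ADP and that microglia carry, was at -3.83 and Tgfb1 at -4.10. Of 8 measured partners 4 were higher and 4 lower, with a median of 0.03, close to the 42.8% of all genes called higher and 43.1% called lower.
Of 18 other complement genes measured, 16 were lower and 1 higher in IP. C3 stood at -2.90, C4b at -2.96 and the inhibitor Serping1 at -1.73, while Cd55, a membrane inhibitor of complement, was higher by 0.71. Of 18 neuronal relatives of C1q and synaptic proteins that bind or regulate it, 8 were higher and 8 lower, again near those shares of all genes. Nptx1 was at 0.75, Nptxr at 0.52 and Nptx2 at 1.23, all neuronal pentraxins or their receptor. C1ql1, which also stood on the list of oligodendrocyte precursor markers, was at -2.51. C1ql2 had 37858 counts in all IPs together and 28548 in all inputs, and C1ql3 67011 and 59677, not scaled for depth. Single IPs differed widely, with 18.6 to 174 CPM of C1ql2 and 97.7 to 272 CPM of C1ql3.

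Set against control mice, inputs of cKI mice held more Gpr34 and P2ry13, and the other members of the group did not pass the test. The increase was 1.26 times for Gpr34 and 1.23 times for P2ry13 in the group means. Cx3cr1, Tmem119, P2ry12, Csf1r and C1qa lay above 0 by 0.10 to 0.28 on the log2 scale without passing, and C1qb and C1qc lay at 0.

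Gpr34 had 11.5, 11.9 and 12.5 CPM in cKI inputs at 1 h and 14.6, 13.1 and 12.1 CPM in naive cKI inputs, against 8.71, 10.2 and 10.2 CPM in control inputs at 1 h and 11.1, 9.31 and 10.7 CPM in naive control inputs. All 6 cKI mice lay above all 6 control mice, as was the case for 0.842% of genes in inputs. Over both states the log2 fold change was 0.35 (SE 0.07, 95% interval 0.20 to 0.50, edgeR adjusted p = 0.0168).
P2ry13 had 9.57, 11.1 and 11.6 CPM in cKI inputs at 1 h and 11.4, 12.0 and 10.6 CPM in naive cKI inputs, against 8.87, 7.72 and 8.93 CPM in control inputs at 1 h and 8.91, 9.31 and 10.2 CPM in naive control inputs. Of the cKI mice, 5 lay above the highest control mouse. Its log2 fold change was 0.32 (SE 0.07, 95% interval 0.18 to 0.47, edgeR adjusted p = 0.0223).
These were 2 of 9 genes called higher, against 1.15% of the 17232 genes tested in inputs, and 0 were lower. Neither call held with lane as a covariate, where the log2 fold changes were 0.41 (adjusted p = 0.137) for Gpr34 and 0.45 (adjusted p = 0.113) for P2ry13, nor with all 24 libraries in 1 fit (0.33 with adjusted p = 0.196, and 0.30 with adjusted p = 0.105). Both were lost without cKI replicate 2 or 3 at 1 h (edgeR adjusted p of 0.0548 to 0.0712), and that of P2ry13 also without naive cKI replicate 2 (0.0588) or control replicate 2 at 1 h (0.0568). With lane in the fit neither estimate was smaller, and the lane term rests on the naive control inputs alone.

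**Figure D2:**
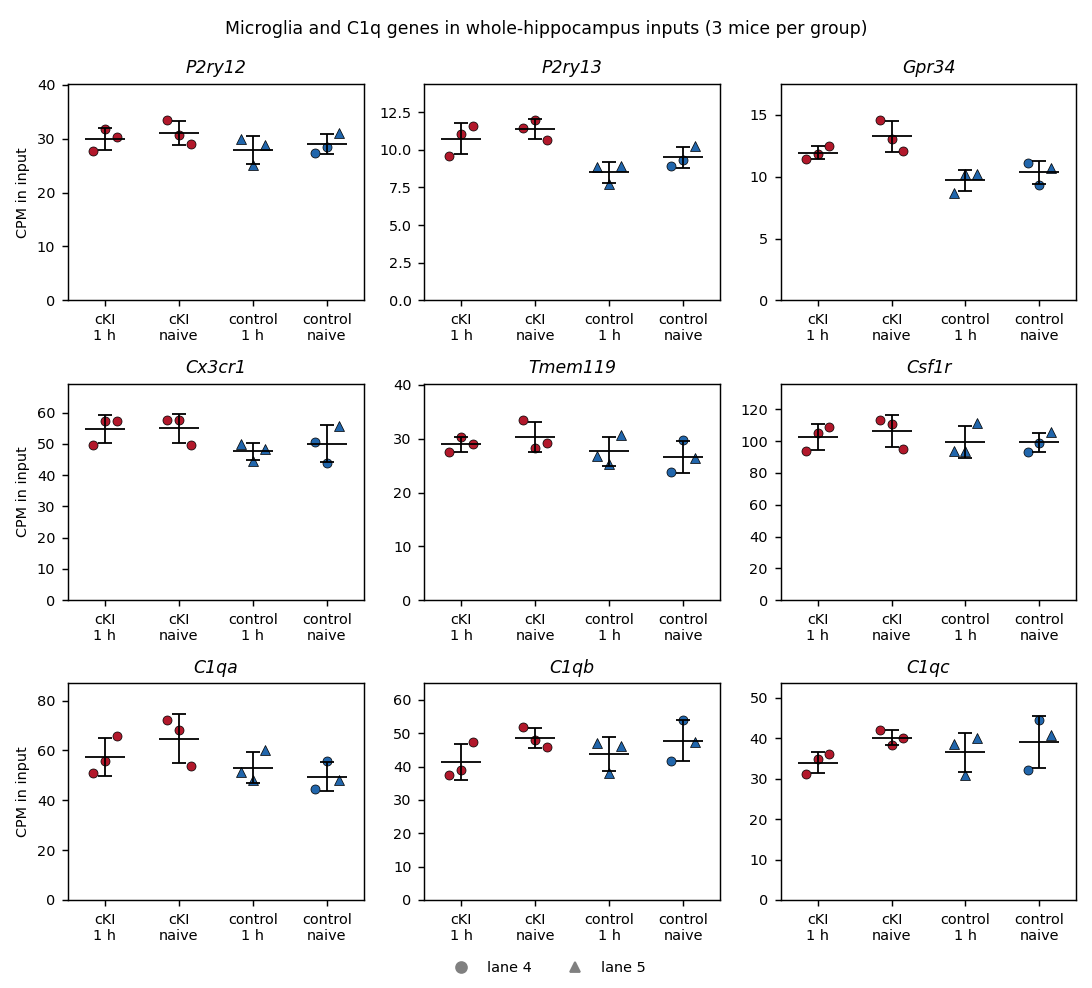
CPM in inputs (y axes from 0) for each of the 9 genes; points are mice, circles lane 4 and triangles lane 5, and bars give the mean and SD of 3 mice. For Gpr34 the cKI mice sit between 11.5 and 14.6 CPM, above the control mice at 8.71 to 11.1 CPM, while for C1qb the genotypes share 1 range.

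P2ry12, the relative of P2ry13 most used as a microglia marker, averaged 30.5 ± 2.02 CPM in cKI inputs and 28.5 ± 2.09 CPM in control inputs (SD, n = 6 each), which gives 0.13 on the log2 scale (SE 0.06, edgeR adjusted p = 0.227). Cx3cr1 averaged 54.9 CPM in cKI inputs and 48.9 CPM in control inputs, with 4 of 6 cKI mice above every control mouse (0.19, SE 0.07, adjusted p = 0.138). Tmem119, a surface marker of microglia whose function is little known, had 27.5 to 33.5 CPM in cKI inputs (median 29.1 CPM) and 23.8 to 30.7 CPM in control inputs (median 26.6 CPM), and lay at 0.15 (adjusted p = 0.174). Csf1r, with the most counts of the 9, had 93.8 to 113 CPM in cKI inputs and 93.1 to 111 CPM in control inputs, nearly 1 range, and lay at 0.10 (adjusted p = 0.378).
C1qa had 50.8, 55.6 and 65.7 CPM in cKI inputs at 1 h and 72.4, 68.0 and 53.7 CPM in naive cKI inputs, against 51.4, 48.0 and 60.0 CPM in control inputs at 1 h and 44.5, 55.9 and 47.9 CPM in naive control inputs. The 3 highest libraries were of cKI mice and the 3 lowest of control mice, and between them the genotypes overlapped.
Its log2 difference was 0.28 (SE 0.09, 95% interval 0.08 to 0.47, edgeR adjusted p = 0.122). It passed with the DESeq2 Wald test (adjusted p = 0.0343) and in edgeR without naive cKI replicate 3 (0.0460). C1qb had 37.6 to 52.0 CPM in cKI inputs and 38.0 to 54.1 CPM in control inputs, at -0.00 with a 95% interval of -0.17 to 0.16, and C1qc at -0.01 with one of -0.18 to 0.16, so a change of the size seen in Gpr34 lies outside both intervals.
The median of the 9 was 0.15, against 0.00 over all genes, and 6 of 9 had an unadjusted p under 0.05, against 3533 of 17232 genes.

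**Figure D3:**
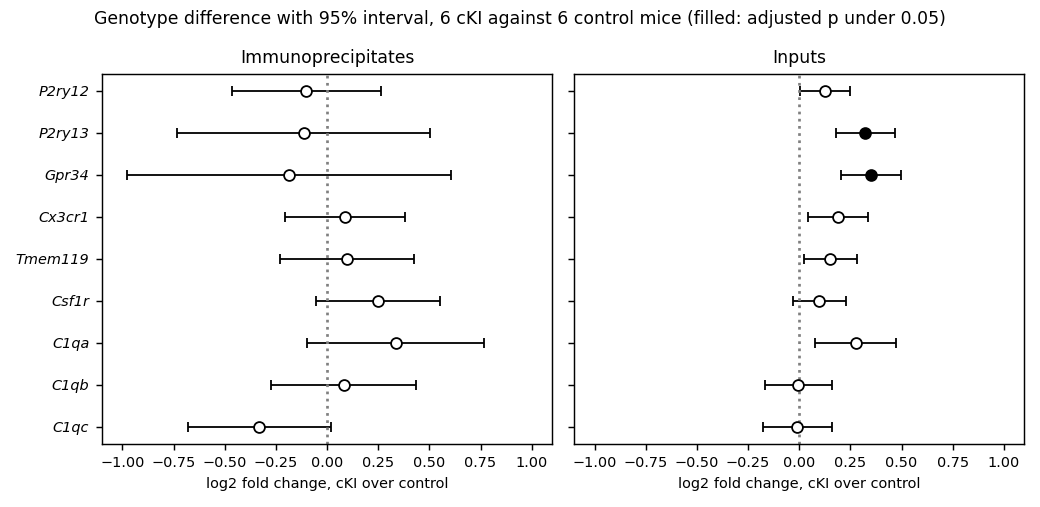
Log2 fold change of cKI over control mice (x axis) with its 95% interval for each gene, as the mean of both training states, in IPs (left) and inputs (right); filled points passed the adjusted threshold. In inputs Gpr34 at 0.35 and P2ry13 at 0.32 are filled, and in IPs no point is.

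Among 30 other microglia genes in inputs, 2 were higher in cKI mice and 0 lower, against 1.15% and 2% of all genes. The median of the 30 was 0.19, and 27 of 30 lay above 0. Those called were Csf3r, the receptor for a granulocyte growth factor, at 0.55 (edgeR adjusted p = 0.00429) and Unc93b1, which moves Toll-like receptors, at 0.30 (0.0402). The call of Csf3r held in 12 of 12 edgeR fits with 1 library left out and that of Unc93b1 in 3 of 12, and neither held with lane as a covariate. Trem2 was at 0.11, Aif1 at 0.19 and Ctss at 0.32, none of them called. Of 18 other complement genes 2 were higher and 1 lower, and 15 did not pass. The same shares of all genes stand beside this list and those that follow. C3ar1, the receptor of a C3 fragment, was at 0.67 (0.00892) and Itgb2, a chain of the complement receptor on macrophages, at 0.42 (0.0277), while Clu, a fluid-phase inhibitor made by astrocytes, was at -0.27 (0.00171). Left-out libraries left the calls of C3ar1 and Clu in 12 of 12 fits and that of Itgb2 in 5 of 12, and all 3 were lost with lane as a covariate. C3 itself was at 0.74 without passing (SE 0.22, adjusted p = 0.100).
Of 16 measured genes of activated microglia, Gpnmb alone was called, at 0.72 (adjusted p = 0.0458, kept in 2 of 12 fits with a library left out). Il1b and Tnf were below the filter on low counts. Partners of phagocytosis, such as the receptor Mertk and its bridging ligand Gas6, gave 0 calls of 10 in edgeR and by the DESeq2 Wald test, with 7 at an unadjusted p under 0.05. Receptor partners gave 0 calls of 8 in edgeR, with 3 at an unadjusted p under 0.05, and 1 lower call with the DESeq2 Wald test; Cx3cl1 was at -0.09 and Csf1 at 0.16. Nptx2, an activity-regulated pentraxin, was the 1 call among 18 neuronal relatives and regulators of C1q, at -0.28 (0.0471, kept in 2 of 12 such fits).

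Markers of other cells moved in the same inputs. Oligodendrocyte markers were lower in cKI mice, with 7 of 8 called and a median of -0.31, against 2% of all genes called lower, Mbp being at -0.36. Of astrocyte markers 3 of 8 were lower and of inhibitory neuron markers 2 of 8, whereas vessel and excitatory neuron markers, with medians of -0.16 and 0.09, gave 0 calls in edgeR, with 4 and 2 of 8 at an unadjusted p under 0.05, and 1 and 0 calls by the DESeq2 Wald test. Oligodendrocyte precursors had 2 of 6 markers lower, Gpr17 and Olig1. Markers of choroid plexus and of blood gave 0 calls of 6 and of 4 in edgeR and 0 by the DESeq2 Wald test, with 0 and 1 at an unadjusted p under 0.05. The summed choroid plexus level was uneven between inputs, from 22.2 CPM in naive cKI replicate 1 to 364 CPM in control replicate 1 at 1 h. With lane as a covariate Mbp was the 1 call left among all these markers. Among markers of perivascular macrophages and blood leukocytes, cells that share part of the microglial programme, Ccr2 of monocytes was higher, at 1.30 (edgeR adjusted p = 0.0432). That call was kept in 3 of 12 fits with a library left out and rests on 188 counts in all inputs together. Of the same list, Mrc1, Cd163, Lyve1, F13a1 and Pf4 were all below 0. The summed level of that list, of 11 genes, was 6.59 to 10.3 CPM in cKI inputs and 7.48 to 12.5 CPM in control inputs, and S100a8 and S100a9 of neutrophils were at 0 in every IP and below the filter on low counts in inputs. The part of these cells in the Gpr34 and P2ry13 results was not tested.

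**Figure D4:**
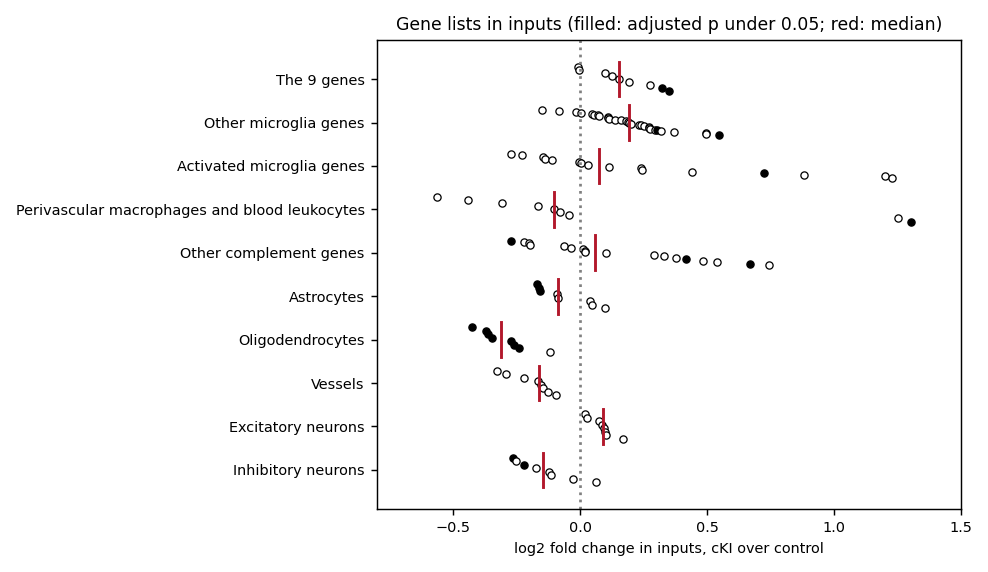
Log2 fold change of cKI over control mice in inputs (x axis) for each measured gene of the lists named on the y axis; filled points passed the adjusted threshold and red lines are medians. The 9 genes and the other microglia genes have medians of 0.15 and 0.19, and oligodendrocyte markers one of -0.31.

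Within each training state, with 3 mice against 3, none of the 9 genes passed the edgeR test in inputs. In mice 1 h after conditioning Gpr34 was at 0.31 (SE 0.10, edgeR adjusted p = 0.298) and P2ry13 at 0.35 (SE 0.10, 0.219), where 0.267% of all genes were called. In naive mice Gpr34 was at 0.39 (SE 0.10, adjusted p = 0.0820), P2ry13 at 0.29 (0.149) and C1qa at 0.42 (SE 0.13, 0.142), where 0.859% of all genes were called. Of the 9, 3 had an unadjusted p under 0.05 at 1 h, against 1547 of 17232 genes, and 4 in naive mice, against 3036 of 17232. With the DESeq2 Wald test Gpr34 (adjusted p = 0.0251) and C1qa (0.0272) passed in naive mice and none of the 9 at 1 h. All 3 cKI mice lay above all 3 control mice for Gpr34 and for P2ry13 in both states, as did 9.26% of genes at 1 h and 7.17% in naive mice. Cx3cr1 was at 0.22 at 1 h and 0.17 in naive mice.
Within lane 4 alone, which holds 3 cKI and 2 control inputs of naive mice, Gpr34 was at 0.41 (adjusted p = 0.138), P2ry13 at 0.35 (0.153), C1qa at 0.41 (0.220) and C1qb at 0.06 (0.803). At 1 h no lane held inputs of both genotypes, so lane and genotype cannot be told apart there.

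No change of these genes was detected in inputs 1 h after fear conditioning, which does not show that their levels stayed equal. None of the 9 passed the edgeR test in cKI inputs, where 0.0174% of all genes were called, in control inputs, where 0.737% were called, or in the mean of both genotypes (0.818%). C1qb in cKI inputs had 37.6, 38.9 and 47.4 CPM at 1 h and 52.0, 47.9 and 45.8 CPM in naive mice, ranges that overlap, a log2 fold change of -0.23 (SE 0.11, adjusted p = 0.943). C1qc in cKI inputs had 31.1, 34.8 and 36.1 CPM at 1 h and 42.0, 38.4 and 40.1 CPM in naive mice, with every trained mouse below every naive one, as for 7.02% of genes (-0.23, SE 0.11, adjusted p = 0.943). All 6 of these libraries ran in lane 4. In control inputs, where lane moved with training, C1qb was at -0.10 and C1qc at -0.08. Over both genotypes C1qb, at -0.16, was the 1 gene of the 9 with an unadjusted p under 0.05 (edgeR adjusted p = 0.409).
The purine receptors were at -0.04 (P2ry12) and -0.11 (P2ry13) and Gpr34 at -0.11, and Cx3cr1 was at -0.03, Tmem119 at 0.01, Csf1r at -0.01 and C1qa at -0.02. An unadjusted p under 0.05 was reached by 0 of the 9 in cKI inputs, in control inputs and in the interaction, and the DESeq2 Wald test also called 0 in each. No interaction of genotype with training was called for any of the 9 (0.0348% of all genes); the interaction was largest for C1qa, at -0.29 (SE 0.18, adjusted p = 0.989), and P2ry13 and Gpr34 had 0.06 and -0.07.

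In IPs the small residual of these genes did not differ detectably between genotypes at this depth. None of the 9 passed as the mean of both states, where 1.69% of 15238 genes were called, in naive mice (3.70%) or at 1 h (0.0591%), and none had an unadjusted p under 0.05 in any of the 3; the DESeq2 Wald test called 0 as well. The 2 genes that were higher in cKI inputs were below 0 here, Gpr34 at -0.19 (SE 0.37) and P2ry13 at -0.12 (SE 0.29), with 95% intervals of -0.98 to 0.60 and -0.74 to 0.50 that hold the input values.
C1qc averaged 1.13 CPM in cKI IPs and 1.44 CPM in control IPs (-0.33, SE 0.16, edgeR adjusted p = 0.295). C1qa averaged 2.44 CPM in cKI IPs and 1.94 CPM in control IPs, at 0.33 (SE 0.20, adjusted p = 0.390), with naive cKI replicate 2 at 4.12 CPM far above the rest. Csf1r lay at 0.25 (SE 0.14, adjusted p = 0.366). Within lane 6 alone at 1 h, Csf1r was at 0.24, C1qa at 0.22 and C1qc at -0.42, and none passed.
Conditioning gave 0 calls among the 9 in IPs of cKI mice (0.0459% of all genes), of control mice (0.328%) or of both (0.387%), and the interaction gave 0 (0.0131%), with 0 unadjusted p under 0.05 in each and 0 calls by the DESeq2 Wald test.
Fits of the ratio of IP to input used group means and did not pair the IP and the input of the same mouse. With genotype the ratio gave 0 calls among the 9 (0.0229% of all genes called), with Gpr34 at -0.52 (SE 0.31) and P2ry13 at -0.42 (SE 0.24). With training it gave 0 calls as well (0.00573%), with C1qc at 0.37 (SE 0.17) at an unadjusted edgeR p of 0.0467; the DESeq2 Wald test called 0 of the 9 in both ratio comparisons.

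The 3 chains of C1q are made in equal parts in the finished protein, and their genes lie next to each other on chromosome 4. In inputs the count of C1qc per count of C1qb was 0.828 ± 0.050 in cKI mice and 0.826 ± 0.036 in control mice (SD, n = 6 each). The count of C1qa per count of C1qb was 1.36 ± 0.096 in cKI mice and 1.13 ± 0.12 in control mice. It was 1.35, 1.43 and 1.39 in cKI mice at 1 h and 1.39, 1.42 and 1.17 in naive cKI mice, against 1.09, 1.26 and 1.30 in control mice at 1 h and 1.07, 1.03 and 1.01 in naive control mice. Of the 6 cKI mice, 5 lay above every control mouse, and the exception was naive cKI replicate 3. The 2 naive control inputs of lane 4 had 1.07 and 1.03, below all 6 cKI inputs of that lane. Of these cKI inputs the naive ones had 1.39, 1.42 and 1.17, and the others were of mice at 1 h. Every control mouse at 1 h lay above every naive control mouse. The ratio was chosen after the values were seen and was not tested.

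**Figure D5:**
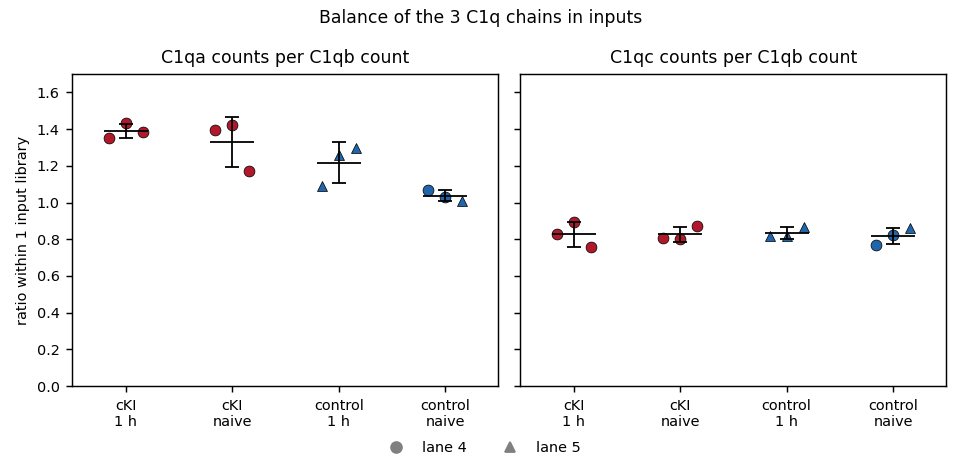
Counts of C1qa (left) and C1qc (right) per count of C1qb within each input library, 1 point per mouse, circles lane 4 and triangles lane 5, with the mean and SD of 3 mice. C1qa per C1qb averages 1.36 in cKI and 1.13 in control mice, and C1qc per C1qb is 0.828 and 0.826.

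Of the 10 nearest measured genes of the C1q cluster, 5 on each side in RefSeq order, 1 was called in inputs, against 3.15% of all genes, and 3 in IPs, against 1.69%. Ephb2 was the 1 called in inputs, at 0.17 (edgeR adjusted p = 0.0476, kept in 2 of 12 fits with a library left out). In IPs Ephb2 was at 0.26 (0.00906), Luzp1 at -0.26 (0.0488, kept in 2 of 12) and Wnt4 at -1.52 (0.00104), and none of the 3 passed with lane as a covariate.
P2ry12 and P2ry13 lie inside the span of Med12l, and Gpr34 inside that of Cask, both of which gave far more reads in IPs than these receptors. Med12l had 50.0 CPM in IPs and 58.4 CPM in inputs, and Cask 85.8 CPM in IPs and 76.5 CPM in inputs. The strand setting of the counts is not given in the sources used here, so reads of a host gene within these loci cannot be told from those of the receptors, which matters most for the low IP values. Med12l was at 0.07 and Cask at 0.03 between genotypes in inputs, neither called. Of the nearest measured genes beside the other loci, Pdgfrb of pericytes, next to Csf1r, was lower in cKI inputs at -0.22 (edgeR adjusted p = 0.0269, kept in 6 of 12 fits with a library left out and lost with lane as a covariate). P2ry14, a related receptor gene beside P2ry12 and P2ry13, lay at -4.49 between IP and input and at -0.26 between genotypes in inputs (adjusted p = 0.293).

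Across the 12 inputs the 9 genes varied together in part. Over their 36 pairs the median Pearson r of log2 CPM was 0.59, with the highest value, 0.90, between C1qb and C1qc, and the lowest, -0.00, between Gpr34 and C1qc; P2ry12 and P2ry13 had 0.85. These points share libraries, lanes and depth and are given as a description. Among 13233 other genes, the 10 whose levels over the 12 inputs were most like the mean of the 9 were Ctss at r = 0.93, AU020206, Lpcat2, Ctsz, Pld4, Irf8, Unc93b1, Plek, H2-Q4 and Hcls1 at 0.90. Of these, Ctss, Irf8 and Unc93b1 stood on the list of other microglia genes. In the 12 IPs the median pair had r = 0.25, and the most alike genes were led by C4b at 0.82, followed by Pofut2, S1pr1 and Aqp4, the last a water channel of astrocytes.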

How the data were processed

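Poly(A) RNA of inputs and RiboTag IPs was made into directional libraries and sequenced as paired reads, per the labels' protocols. The deposited values are raw counts per gene, whole numbers with no normalization, made by the authors. Per the submitters' processing notes, cutadapt, Bowtie and DESeq2 were used; their roles are not stated. Counter, build and strandedness of counting are not given here. Samples were grouped by genotype, training state and fraction from the labels, giving 8 groups of 3 mice. Each table column was tied to its library by name.

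Counts were tested with edgeR 4.0.16 (limma 3.58.1, R 4.3.3; TMM scaling, filterByExpr, robust quasi-likelihood fit, 1 mean per group), separately for the 12 inputs, the 12 IPs and, across fractions, all 24 libraries. P-values were adjusted by Benjamini-Hochberg over all genes tested, and an adjusted p under 0.05 was called. Tests with 3 mice a group measure the spread between these mice. The fits were tested on simulated data with known changes in genes above a count limit, with the same spread for all genes and no lane effect. That simulation says nothing about lane or about the low counts in IPs. The alternatives were DESeq2 1.42.0 (Wald test, or its size factors in edgeR), no filter on low counts, lane as a covariate or 1 lane alone, all libraries in 1 fit, replicate blocks, and each library left out. The genes described, and the lists of partners and cell markers, were chosen with earlier results of these data known. Named genes are the 9, the first 4 of each list, up to 4 called members of a list in each direction by smallest p, neighbours of the 9 loci, and the 10 genes most alike; Cyth4, Il1b, Tnf and Pf4 were named after their values were seen, and 1 gene under this rule is not reported here. The mouse number in the titles pairs the IP and the input of 1 mouse. Levels of P2ry13 and Gpr34 in IPs rest on at most 24 counts per library. Tables and figures were made with Python 3.11.15, numpy 2.4.6, pandas 2.3.3 and matplotlib 3.10.9.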

Additional observations from a re-analysis of the deposited data

Results flagged for a closer look

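Of 60 sets of 6 libraries checked for the 9 genes (levels, percent of input and ratios between C1q chains, each within 1 genotype and fraction), 4 held a library far from the other 5 by Dixon's criterion at the 95% level, and chance gives about 1 in 20. P2ry13 in control IPs was highest in replicate 1 at 1 h, at 0.563 CPM, and the same mouse had the highest percent of input for P2ry13, at 6.34%. C1qb in cKI IPs was highest in naive replicate 2, at 2.12 CPM. The count of C1qa per count of C1qb in cKI inputs was lowest in naive replicate 3, at 1.17. What sets these libraries apart was not tested.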

How the results depend on the processing

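All 9 genes were called lower in IP than in input under every one of the 29 alternatives run for that comparison, mouse as the replicate block included. The genotype difference in inputs over both states, with 2 calls (Gpr34 and P2ry13), kept 0 with lane as a covariate and 0 with all 24 libraries in 1 fit, and 0 to 3 with a library left out, the third being C1qa. In naive mice, with 0 calls in edgeR, the DESeq2 Wald test called 2. The replicate number as a block kept Gpr34 (0.35, adjusted p = 0.0431) and P2ry13 (0.32, adjusted p = 0.0465), and changed no other call among the 9; same-numbered mice of different groups did not deviate together in every pair (r of -0.114 to 0.083 in inputs and -0.189 to 0.404 in IPs), so the numbers were not taken as pairs. No called gene changed its direction, while C1qb and C1qc, near 0, changed sign in 7 of 18 alternatives. Over all genes, the 543 calls between genotypes in inputs became 946 with the DESeq2 Wald test, 292 with the replicate block, 18 with lane as a covariate, 230 with all libraries in 1 fit and 164 to 741 with a library left out. In naive mice 148 became over 3 times as many with the DESeq2 Wald test, 58 with all libraries in 1 fit, 92 in lane 4 alone and 52 to 143 with a library left out. In IPs 258 became 778 with the DESeq2 Wald test, 467 with the replicate block and 3 with lane as a covariate, and between IP and input 14996 became 9763 with lane as a covariate. Among other microglia genes the 2 higher calls in inputs became 8 with the DESeq2 Wald test, among other complement genes 2 became 4, and both became 0 with lane as a covariate. Another scaling moved the median of all genes by at most 0.07. The cause of these shifts was not tested. For comparisons where no lane holds both arms the single-lane alternative was not run. Depth limits the IP values, since 3 to 24 counts of Gpr34 per IP cannot show a change of the size seen in inputs.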
